A study of Rattus norvegicus with 80 samples.

Results

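Whole mammary pads of rats of the Nf1-mutated line IFPS were compared with those of wildtype rats. The comparison took the 6 IFPS and the 6 wildtype pads of the count table, 12 of 80 libraries, and was chosen by line and tissue label, not by any measured value. The study profiled wildtype rats and 3 Nf1-mutated lines, labelled IF, PS and IFPS, as whole pads, as mammary epithelial cells (MECs), adipocytes and fibroblasts, and as tumors of the mutated lines. The labels give the genotype as IFPS or wildtype, without spelling out the name, the allele, the zygosity, or the age or sex of the rats, and name no treatment. RNA of a pad was obtained from freshly harvested tissue that was cut up, homogenised and extracted with Trizol, and mRNA libraries were read as paired ends on a NovaSeq. Titles number the pads in a first set of 1 to 12 and a second set of 13 to 21. Wildtype, IFPS and PS have 3 pads in each set, while the 3 IF pads are all of the first set. The pads compared are called here wildtype 1 to 3 and IFPS 1 to 3 (first set) and wildtype 4 to 6 and IFPS 4 to 6 (second set). The labels do not say what separates the sets, nor that the pads came from separate animals, so p-values measure the spread between these samples, which may in part be technical.

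Nf1 encodes neurofibromin, a GTPase-activating protein that returns Ras from its active GTP-bound state to its inactive state, so that loss of neurofibromin raises Ras signaling. In people, inherited mutation of NF1 causes neurofibromatosis type 1, in which the risk of breast cancer is raised. A whole mammary pad is an epithelial ductal tree, made of luminal and myoepithelial cells, embedded in adipocytes with fibroblasts, vessels, nerves and immune cells. A bulk library of a pad averages over all of these, and fewer cells of a type cannot be told apart from less RNA per cell.

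The table pairs its 32883 Ensembl identifiers with no gene symbols, and 0 of them could be matched to a symbol here. The level of Nf1, which would check the line labels, was therefore not analysed here, and neither were markers of pad cell types or lists of pathway genes. A few identifiers are printed in their place, and cell types are described through genes enriched in the isolated wildtype cells.

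No gene passed the test between IFPS and wildtype pads. edgeR's quasi-likelihood test, with the set of title numbers as a covariate and Benjamini-Hochberg adjustment, called 0 of 16384 genes (0%) at an adjusted p under 0.05, and the smallest adjusted p was 0.4294. At an unadjusted p under 0.05 there were 1297 genes (7.92%), of which 496 were higher and 801 were lower in IFPS pads. DESeq2 called 21 genes, 5 higher and 16 lower. The median gene had a log2 fold change of 0.01, and 331 genes (2.02%) differed by more than 1 on the log2 scale in either direction.

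The 95% confidence interval of the log2 fold change lay within ±1, that is within a 2-fold difference in either direction, for 13160 genes (80.3%). This share was 33.6% of the 2280 genes with a mean level under 1 CPM (a gene's counts scaled to a fixed library total), 75.3% of the 3715 genes at 1 to 10 CPM, 92.7% of the 8405 genes at 10 to 100 CPM and 91% of the 1984 genes above 100 CPM. A line difference of more than 2-fold was thus outside the interval for most genes above 10 CPM. The median standard error was 0.1534 on the log2 scale.

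The 12 pads had between 23831093 and 31579464 counts. Their main axis of variation did not follow the line. A principal component analysis of log2 CPM put 56.2% of the variance on its first axis, which set apart wildtype 4, wildtype 5 and IFPS 6, with scores of 97.1, 66.3 and 79.7. Wildtype 6 and IFPS 3 followed at 18.2 and 17, and the other 7 pads lay between -55.8 and -25.3. In the same 3 pads the 10 most abundant genes took 17.65%, 17.34% and 16.97% of the counts, against 9.848% to 13.94% in the other 9 pads.

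**Figure D1:**
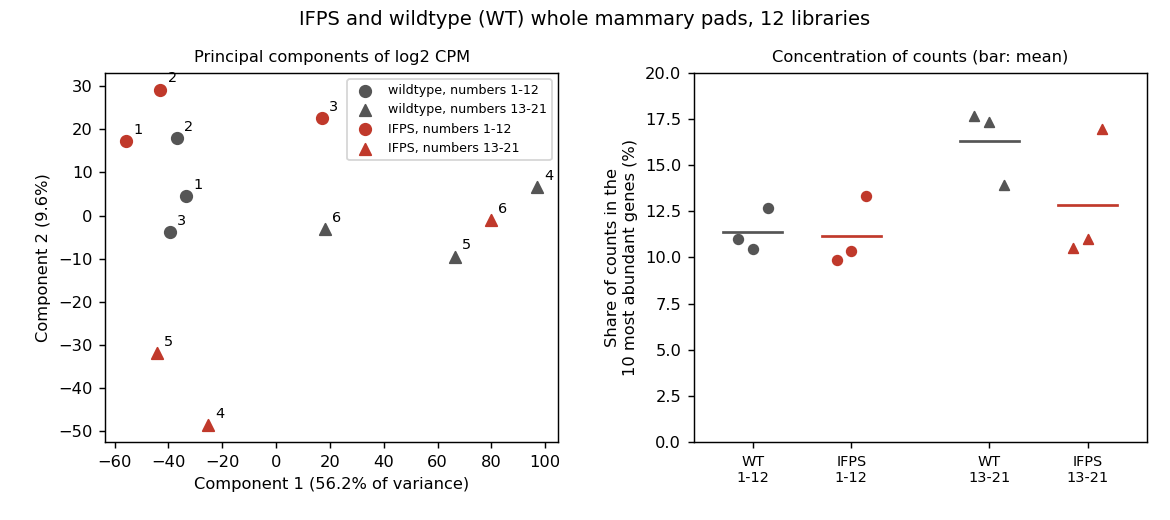
The left panel plots the first against the second principal component of log2 CPM for the 12 pads, with the replicate number beside each point, and the right panel plots the share of counts in the 10 most abundant genes, in percent, for each pad with the mean of 3 pads as a bar. Wildtype 4, wildtype 5 and IFPS 6 lie apart on the first component and have the highest shares, 16.97% to 17.65%, so pads of both lines stand apart.

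Genes enriched in adipocytes made up 35.6% of the 500 genes with the highest loading on this component, and 14% of the 500 with the lowest, against 6.87% of all genes tested. Genes enriched in whole pads over all 3 isolated cell types made up 12.6% of the highest and 55.8% of the lowest, against 6.2% of all. Fibroblast-enriched genes were 6.6% and 1.8%, against 1.86% of all, and MEC-enriched genes 1.4% and 4.4%, against 5.13%. In the 3 pads that stood apart the genes enriched in MECs had a median log2 difference of -0.63 from the other 9 pads, the pad-enriched genes -0.74, the adipocyte-enriched genes 0.14 and the fibroblast-enriched genes 0.27. How these sets were formed is given with their comparison between the lines. Without these 3 pads edgeR again called 0 genes between the lines, with 923 at an unadjusted p under 0.05.

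Pooled over the sets, pads of one line and pads of different lines were about equally alike. The median Spearman correlation over genes was 0.9782 for the 30 pairs of the same line and 0.9796 for the 36 pairs of IFPS with wildtype. Within the first set the medians were 0.9916 for wildtype pairs, 0.9782 for IFPS pairs and 0.9863 for pairs of IFPS with wildtype. Within the second set they were 0.9839, 0.9621 and 0.972, in the same order. The most similar other pad was of the same line for 3 of 6 IFPS pads and 5 of 6 wildtype pads. Summed over genes, the line held 8.2% of the variance of log2 CPM among the 12 pads, where 1 degree of freedom of 11 amounts to 9.1%, the set of title numbers held 26.6% and the line by set term 11.4%.

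The 2 lower and the 2 higher identifiers of smallest p that had at least 1 CPM and one direction in both sets are given next. ENSRNOG00000018570 had the smallest p of all genes. In the first set it stood at 14.7, 6.01 and 9.97 CPM in the wildtype pads and at 3.03, 3.28 and 4.86 CPM in the IFPS pads. In the second set the wildtype pads had 10.4, 10.3 and 11.8 CPM and the IFPS pads 4.71, 5.45 and 6.36 CPM. The lines did not overlap within either set, and only IFPS 6 lay above the lowest wildtype pad, wildtype 2. The means were 10.53 ± 2.817 CPM in wildtype and 4.617 ± 1.274 CPM in IFPS pads (SD, n = 6 each). On the log2 scale the IFPS pads differed by -1.21 ± 0.23 (SE), with an edgeR adjusted p of 0.4294. DESeq2 gave ENSRNOG00000018570 an adjusted p of 0.00219.

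ENSRNOG00000014534 was a gene of low level that was lower in every IFPS pad than in every wildtype pad. Its levels were 2.13, 1.53 and 1.7 CPM in wildtype 1 to 3 and 1.25, 1.54 and 1.39 CPM in wildtype 4 to 6. The IFPS pads had 0.904, 0.923 and 0.994 CPM in the first set and 0.802, 0.829 and 0.944 CPM in the second, from 21 to 28 counts per library. The log2 fold change was -0.81 ± 0.16, with an edgeR adjusted p of 0.4294 and a DESeq2 adjusted p of 0.02. It was also lower against the PS pads, by a log2 difference of -0.85 ± 0.16 (edgeR adjusted p = 0.1504), and PS and wildtype pads differed by 0.04 ± 0.16. The 3 IF pads had 0.82, 1.2 and 0.994 CPM of ENSRNOG00000014534, which overlaps the IFPS pads.

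Of the higher identifiers, ENSRNOG00000000866 showed a small and even difference. Wildtype pads had 64.3, 59.7 and 60 CPM in the first set and 64.3, 63.5 and 66.7 CPM in the second. IFPS pads had 77.4, 73.6 and 71.6 CPM in the first set and 70.1, 73.7 and 71.4 CPM in the second. Every IFPS pad lay above every wildtype pad, with means of 72.98 ± 2.583 and 63.08 ± 2.7 CPM (SD, n = 6 each). The log2 fold change was 0.21 ± 0.05, with an adjusted p of 0.4697 in edgeR and 0.0114 in DESeq2.

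ENSRNOG00000028043 had the larger difference of the higher pair. Its levels were 1.55, 3.02 and 1.79 CPM in wildtype 1 to 3, 3.22, 2.08 and 5.35 CPM in wildtype 4 to 6, 5.23, 10 and 9.32 CPM in IFPS 1 to 3, and 11, 10.1 and 5.22 CPM in IFPS 4 to 6. IFPS 1 and IFPS 6 lay below the highest wildtype pad, and the other 4 IFPS pads lay above all wildtype pads. The log2 fold change was 1.61 ± 0.39, with an adjusted p of 0.5028 in edgeR and 0.0263 in DESeq2. In isolated wildtype cells ENSRNOG00000028043 stood at 1236 ± 302.4 CPM in adipocytes, 44.83 ± 25 CPM in MECs and 4.531 ± 3.723 CPM in fibroblasts (SD, n = 3 each). The IFPS adipocytes had 1256 ± 142.6 CPM, and every whole pad of either line had 11 CPM or less.

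**Figure D2:**
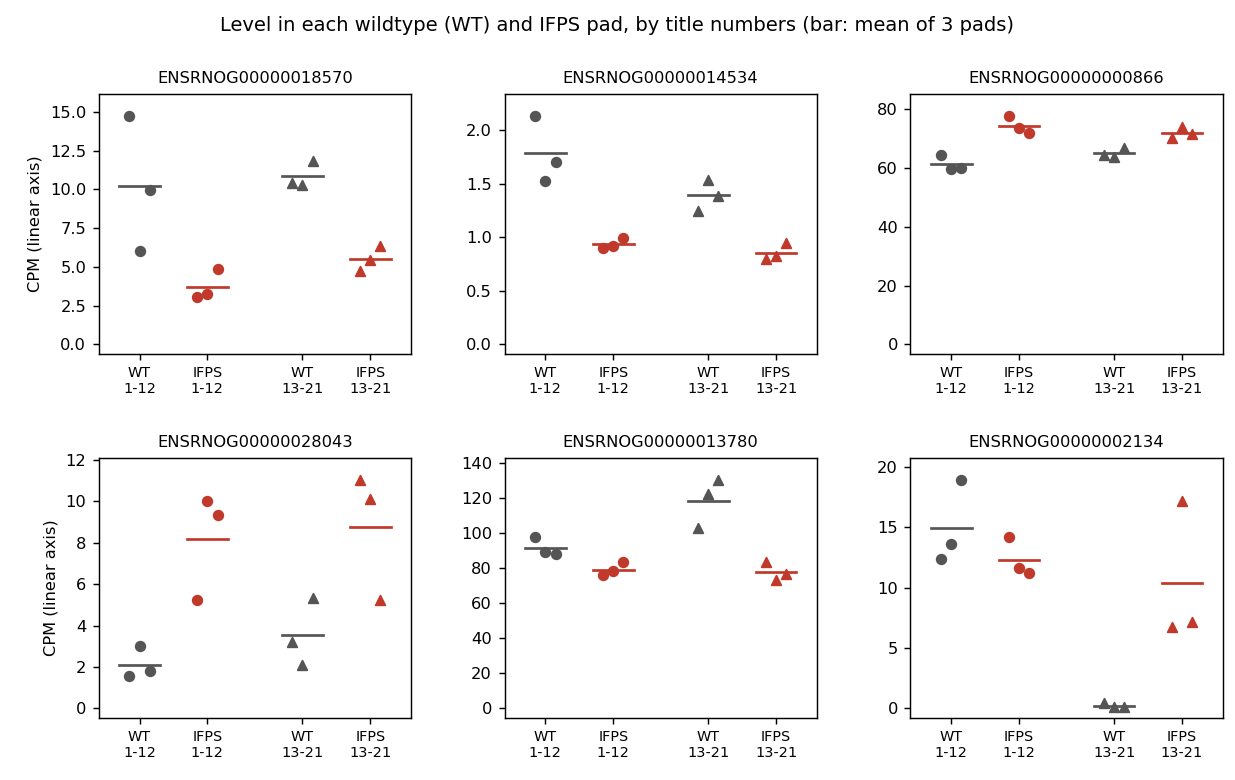
Each panel plots 1 identifier in CPM on a linear axis for each of the 12 pads, wildtype in grey and IFPS in red, by set of title numbers, with the mean of 3 pads as a bar. In the first 5 panels the lines are separate within both sets or nearly so, while in the last the wildtype pads of the second set lie at 0.119 to 0.416 CPM and all other pads at 6.73 CPM or more.

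Over all genes, 46 (0.281%) had no overlap between the 6 IFPS and the 6 wildtype pads. Some genes would separate in this way without any line effect, and how many was not computed. Of the 46, 18 were higher in IFPS pads, with a median log2 fold change of 0.33 and a range of 0.10 to 1.5. The other 28 were lower, with a median of -0.58 and a range of -1.5 to -0.13. Among the 28 lower genes 7 were enriched in fibroblasts, 1 in whole pads and 0 in MECs or adipocytes, and among the 18 higher genes 2 were enriched in MECs, 1 in adipocytes, 1 in whole pads and 0 in fibroblasts. Of all genes tested, 1.86% were enriched in fibroblasts, 5.13% in MECs, 6.87% in adipocytes and 6.2% in whole pads, so counts of 0 to 2 among so few genes show little.

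Each set of title numbers holds a comparison of 3 IFPS with 3 wildtype pads, and these comparisons share no library. In the first set edgeR called 0 of 16384 genes (0%), with 851 at an unadjusted p under 0.05 (5.19%) and 18 called by DESeq2. In the second set edgeR called 9 genes (0.0549%), 1 higher and 8 lower in IFPS pads, with 2476 at an unadjusted p under 0.05 (15.1%) and 151 called by DESeq2. The 9 calls came from the fit of all 21 pads. edgeR called 0 genes in a fit of the pads of the second set alone, with 1723 at an unadjusted p under 0.05, and 1 gene in a fit of only the 6 pads compared. The calls also depended on single pads, with 2 genes called without wildtype 4, 1 without wildtype 5, 1 without IFPS 4 and 2 without IFPS 5. There were 11 without wildtype 6 and 10 without IFPS 6. The log2 fold changes of the sets had the same sign for 8693 genes (53.1%). Their Pearson correlation across genes was -0.2139 and their Spearman correlation 0.04499, over genes that are not independent replicates.

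**Figure D3:**
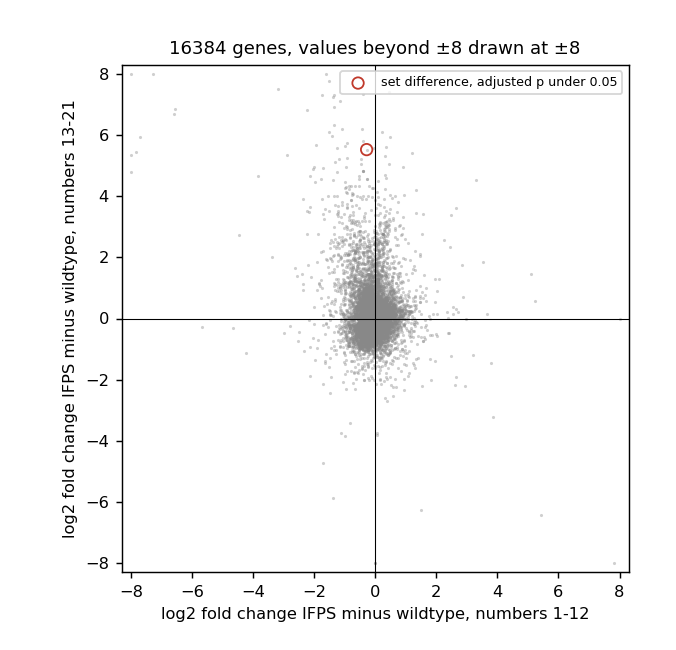
Each point is 1 of 16384 genes, with the log2 fold change of IFPS over wildtype pads in the first set on the horizontal axis and in the second set on the vertical axis. The points do not gather along the diagonal (Spearman correlation 0.04499), and the circle marks the 1 gene whose line difference differed between the sets at an adjusted p under 0.05.

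Genes with one sign and an unadjusted p under 0.05 in both sets were mostly lower in IFPS pads. Among all genes tested, by sign alone, 24.7% were lower and 28.3% higher in both sets. An unadjusted p under 0.05 in both sets was found for 150 genes (0.916%). Taken singly the sets had 5.19% and 15.1% of genes there, so unrelated sets would also share some. How many they would share was not computed. Of the 150 genes, 92 (61.3%, against 53.1% of all genes tested) had the same sign in both sets, 76 lower and 16 higher. Fibroblast-enriched genes were 13 of the 76 lower genes (17.1%), against 1.86% of all genes tested, and 0 of the 16 higher genes. Of the 76 lower genes, 4 were enriched in adipocytes (5.26%, against 6.87% of all), 1 in MECs (1.32%, against 5.13%) and 0 in whole pads (against 6.2%). Of the 16 higher genes, 2 were enriched in MECs, 1 in adipocytes and 0 in whole pads.

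A test of the set difference itself called 1 gene (0.0061%), ENSRNOG00000002134, with 1378 genes at an unadjusted p under 0.05 (8.41%) and 27 genes called by DESeq2. The wildtype pads had 12.4, 13.6 and 18.9 CPM in the first set but 0.416, 0.149 and 0.119 CPM in the second, from 8, 3 and 3 counts. The IFPS pads had 14.2, 11.6 and 11.2 CPM in the first set and 6.73, 17.2 and 7.15 CPM in the second. The gene was thus nearly without counts in 3 wildtype pads alone among the 12. The PS pads had 8.46 to 10.6 CPM in the first set and 5.51 to 14.1 CPM in the second. The log2 fold change of IFPS over wildtype pads was -0.28 ± 0.36 in the first set and 5.53 ± 0.50 in the second (edgeR adjusted p = 8.589e-05), a difference of 5.81 ± 0.62 (adjusted p = 0.0008372). In a fit of the second set alone the log2 fold change of ENSRNOG00000002134 was 5.54, with an edgeR adjusted p of 0.255. Isolated wildtype adipocytes had 57.89 ± 38.8 CPM of ENSRNOG00000002134, wildtype MECs 3.896 ± 2.263 CPM and wildtype fibroblasts 3.892 ± 1.116 CPM (SD, n = 3 each).

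Of the 8 genes called lower in IFPS pads of the second set, 7 had their 3 wildtype pads of that set outside the range of the other 9 pads. ENSRNOG00000047786 is the one with the smallest p. It stood at 13.3, 9.18 and 11.2 CPM in wildtype 4 to 6, against 0.712, 0.397 and 1.03 CPM in wildtype 1 to 3. The IFPS pads had 0.742, 0.615 and 0.884 CPM in the first set and 0.663, 0.553 and 1.19 CPM in the second. The IFPS pads of both sets overlapped the first wildtype set, and the wildtype pads of the second set lay above all other pads of these lines. The log2 fold change was -3.80 ± 0.56 in the second set (edgeR adjusted p = 0.02957) and 0.06 ± 0.55 in the first, a difference of -3.86 ± 0.77 that missed the threshold (adjusted p = 0.25). In a fit of the second set alone it was -3.79, with an edgeR adjusted p of 0.255. IF pads, all of the first set, had 5.53 to 6.68 CPM of ENSRNOG00000047786, and PS pads ranged from 0.564 to 7.6 CPM.

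The wildtype pads differed between the sets in many more genes than the IFPS pads did. Within the wildtype pads edgeR called 633 genes between the sets (3.86%), 372 higher and 261 lower in the second set, and within the IFPS pads 26 genes (0.159%), 8 higher and 18 lower. At an unadjusted p under 0.05 there were 5572 genes (34%) in wildtype and 1469 (8.97%) in IFPS pads, and the sets did not overlap for 6825 genes (41.7%) in wildtype and 2037 (12.4%) in IFPS pads. Of the 26, 17 were also called in wildtype pads (65.4% of the 26 and 2.69% of the 633), all 17 in the same direction. Of the 633, 542 (85.6%) had the same sign in the IFPS pads, with a median size of 0.7405 on the log2 scale in wildtype and 0.2379 in IFPS pads. The test of the difference in set effect is the same as that of the line effect by set, which called only ENSRNOG00000002134, so the 2 counts were not shown to differ gene by gene. The number of 633 fell to between 32 and 85 without any 1 of wildtype 1 to 5, and was 3560 without wildtype 6. Without wildtype 4, wildtype 5 and IFPS 6 the number for IFPS pads was 17. Only wildtype 6 was then left of the second-set wildtype pads, so no number is given for wildtype pads.

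Counted another way, 902 genes (5.51%) had all 3 wildtype pads of the second set above or below the range of the other 9 pads, 476 above and 426 below. This held for 348 genes (2.12%) with the wildtype pads of the first set, for 461 (2.81%) with the IFPS pads of the first set and for 104 (0.635%) with the IFPS pads of the second set. A gap of more than 4-fold was found for 34, 10, 21 and 0 of these genes, in the same order. Wildtype pads of the second set were therefore the most often apart, and IFPS pads of the same set the least often, in a count that was not tested. Those 3 wildtype pads include both wildtype pads that stood apart on the first component, whose part in the count was not tested.

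**Figure D4:**
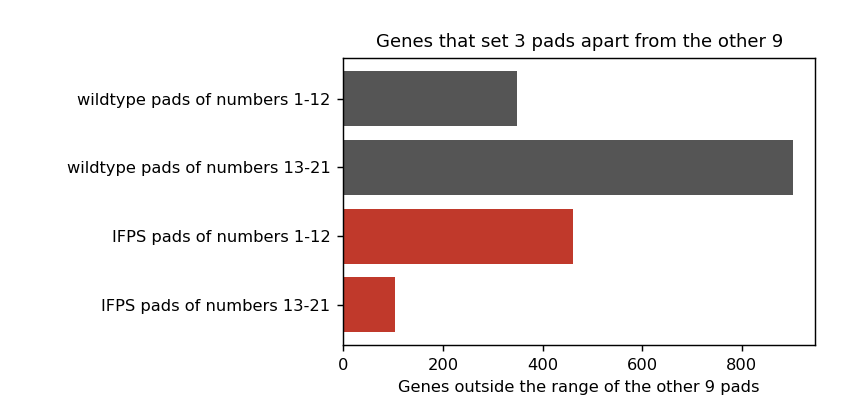
Bars give the number of genes, from 0, for which the 3 pads of a line and set all lie above or all lie below the other 9 pads. The wildtype pads with numbers 13 to 21 have the longest bar, 902 genes, and the IFPS pads with those numbers the shortest, 104 genes.

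A few identifiers were counted almost wholly in 1 set of pads, whatever the line. The rule was a mean of at least 100 counts in 1 set and at least 200 times the mean of the other. It was met by 3 identifiers for the first set and by 6 for the second. The first group had counts in all 12 pads of the first set of the 4 lines and the second group in all 9 pads of the second set. They took 0.01391% to 0.02627% and 0.02537% to 0.04655% of the counts of a pad. The first group also far outweighed the second in 35 libraries of isolated cells and 13 tumors, and the second the first in 8 tumors. Without these identifiers edgeR again called 0 genes between the lines over both sets, 0 in the first set and 9 in the second. The genes called between the sets then numbered 18 in IFPS and 606 in wildtype pads.

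The cell types that make up a pad were then followed through gene sets. A gene entered the set of MECs, adipocytes or fibroblasts where its level in wildtype isolated cells was at least 4-fold above each of the other 2 cell types at an adjusted p under 0.05. A pad-enriched gene was at least 4-fold above all 3 cell types in wildtype pads, so that set used the wildtype pads themselves, and its comparison is a description. All 4 sets were chosen from wildtype libraries alone, and the wildtype cells bear the title numbers of the first-set wildtype pads. Whether this choice favours genes that are high in those pads was not tested. The labels describe the MECs and fibroblasts as cultured, and the adipocytes as mature cells extracted directly, a difference that is part of how these sets were formed. edgeR called no gene of the 4 sets between the lines (0% of all genes tested), and which sets hold the 21 genes called by DESeq2 was not counted.

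Fibroblast-enriched genes were mostly lower in IFPS pads. Fibroblasts lay down the collagens and other matrix of the mammary stroma. Of 304 such genes tested, 210 (69.1%) were lower and 94 higher, against 47.9% lower among all genes tested. At an unadjusted p under 0.05, 67 were lower and 9 higher, against 801 and 496 of all genes. The median log2 fold change of the set was -0.24, with -0.26 in the first set of title numbers and -0.21 in the second, beside 0.01 for all genes in each. A lower level in both sets was found for 146 of these genes (48%), against 24.7% of all genes.

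The mean log2 CPM of the fibroblast-enriched genes was 2.65, 2.59 and 2.78 in wildtype 1 to 3 and 2.41, 2.41 and 2.53 in IFPS 1 to 3. It was 2.73, 2.74 and 2.85 in wildtype 4 to 6 and 2.63, 2.57 and 2.66 in IFPS 4 to 6. Each IFPS pad lay below each wildtype pad of its own set, although the second-set IFPS pads overlapped the first-set wildtype pads. The means over both sets were 2.72 ± 0.09 in wildtype and 2.54 ± 0.11 in IFPS pads (SD, n = 6 each). The summed counts of these genes made up 3.02% to 5.73% of a wildtype library and 2.5% to 4.42% of an IFPS library. The pads that stood apart, whose median log2 difference from the others in this set was 0.27, were 2 wildtype pads and 1 IFPS pad. Without those 3 pads the median log2 fold change was -0.26, and with the first principal component as a covariate it was -0.21.

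**Figure D5:**
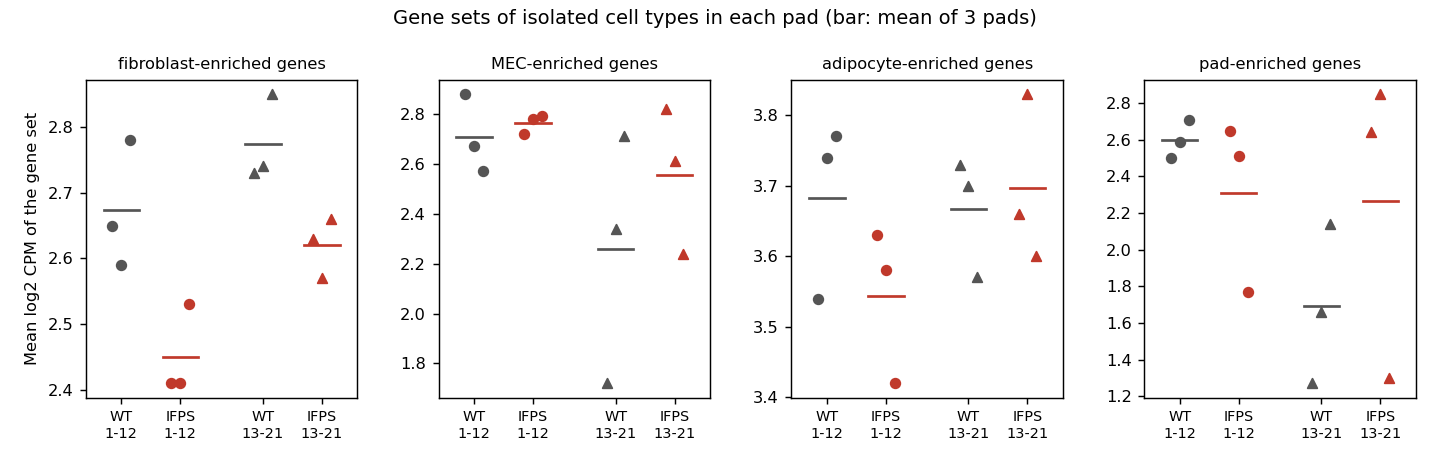
Each panel plots the mean log2 CPM of a set of genes enriched in 1 isolated wildtype cell type, or in whole pads, for each of the 12 pads by line and set of title numbers, with the mean of 3 pads as a bar, and the vertical axes do not start at 0. Only in the panel of fibroblast-enriched genes do all IFPS pads lie below all wildtype pads of the same set, at 2.41 to 2.53 against 2.59 to 2.78 and at 2.57 to 2.66 against 2.73 to 2.85.

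MEC-enriched genes, those of the epithelial cells that form the ducts, were mostly higher in IFPS pads, by small amounts. Of 841 genes tested, 637 were higher and 204 lower, against 52.1% higher among all genes tested. At an unadjusted p under 0.05, 53 were higher and 25 lower, against 496 and 801 of all 16384 genes. The median log2 fold change was 0.18, with 0.10 in the first set and 0.25 in the second. A higher level in both sets was found for 394 of these genes (46.8%), against 28.3% of all genes. The mean log2 CPM ranged from 1.72 to 2.88 in wildtype and from 2.24 to 2.82 in IFPS pads, so the lines overlapped throughout. The lowest pads were wildtype 4 at 1.72, IFPS 6 at 2.24 and wildtype 5 at 2.34, the 3 that stood apart. The median was 0.06 without wildtype 4, and also 0.06 without all 3.

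Adipocyte-enriched genes, those of the fat cells that store lipid, were somewhat more often lower in IFPS pads, by small amounts. Of 1125 genes tested, 474 were higher and 651 lower (57.9%, against 47.9% lower among all genes). At an unadjusted p under 0.05, 20 were higher and 54 lower, against 496 and 801 of all 16384 genes. Lower genes were thus about as frequent there as among all genes, and higher genes less frequent. The median log2 fold change was -0.06, with -0.09 in the first set and -0.02 in the second. In both sets 32.1% of these genes were lower and 17.2% higher, against 24.7% and 28.3% of all genes. Their mean log2 CPM ranged from 3.54 to 3.77 in wildtype and from 3.42 to 3.83 in IFPS pads. Their summed counts took 14.4%, 14.2% and 14.7% in wildtype 4, wildtype 5 and IFPS 6, against 7.97% to 9.64% in the other 9 pads. Pad-enriched genes are by definition lower in all 3 isolated wildtype cell types than in wildtype pads. They had a median of 0.13 over 1015 genes, with -0.15 in the first set and 0.50 in the second. That median was -0.07 without the 3 pads that stood apart and 0 without wildtype 4 alone.

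The same lines were also compared in isolated cells, which share no library with the pads. The cells of a line bear the title numbers of its first-set pads. The labels do not say whether they came from the same rats, so cells and pads may not be independent. edgeR called 55 of 14688 genes between IFPS and wildtype MECs (0.374%), 40 higher and 15 lower, 0 of 14304 in adipocytes (0%), with 927 at an unadjusted p under 0.05 (6.48%) and 214 called by DESeq2, and 9 of 13879 in fibroblasts (0.0648%), all lower. In MECs the number was 1 to 25 when any 1 library was left out, and 10 in a fit of only the groups compared. In fibroblasts it was 0 in a fit of only the groups compared, with 2116 at an unadjusted p under 0.05, 3 without IFPS fibroblast 1 or IFPS fibroblast 3, 238 without IFPS fibroblast 2 and 1558 without wildtype fibroblast 3. edgeR called none of these genes in the pads, where 1297 of all genes had an unadjusted p under 0.05 and where their directions were mixed. Of the 53 MEC genes that were tested in pads, 28 (52.8%) had the same sign there, with a median log2 fold change in pads of 0.01 for the 39 genes higher in MECs and of -0.06 for the 14 lower ones. All 9 fibroblast genes were tested in pads, and 3 (33.3%) were lower there.

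ENSRNOG00000013780 was chosen after its values were seen, as the 1 identifier called in both IFPS MECs and IFPS fibroblasts. In pads it had 97.5, 89.1 and 88.1 CPM in wildtype 1 to 3, 103, 122 and 130 CPM in wildtype 4 to 6, 75.8, 78.2 and 83.3 CPM in IFPS 1 to 3, and 83.3, 73.3 and 76.7 CPM in IFPS 4 to 6. Every IFPS pad lay below every wildtype pad, with means of 78.45 ± 4.07 and 104.9 ± 17.29 CPM (SD, n = 6 each). The log2 fold change in pads was -0.41 ± 0.09, with an adjusted p of 0.4294 in edgeR and 0.0171 in DESeq2. It was -0.54 ± 0.07 in MECs (edgeR adjusted p = 0.01905), -0.56 ± 0.09 in adipocytes (adjusted p = 0.09717) and -0.75 ± 0.06 in fibroblasts (adjusted p = 0.0002617). IFPS libraries were the lower ones in MECs and fibroblasts, by which the identifier was chosen, and also in pads and adipocytes. The ranges were 102.3 to 112.6 against 145.5 to 160.2 CPM in MECs and 69.61 to 72.9 against 110.9 to 126.1 CPM in fibroblasts. In adipocytes they were 70.73 to 71.79 against 102.5 to 109 CPM. Whether these kinds of sample came from separate rats is not given. PS pads had 69.6 to 98.2 CPM of ENSRNOG00000013780 and IF pads 98.7 to 110 CPM.

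The 4 identifiers given first were followed in the isolated cells in the same way. ENSRNOG00000018570 had 14.99 ± 6.152 CPM in wildtype and 6.812 ± 2.756 CPM in IFPS fibroblasts, a log2 fold change of -1.15 ± 0.47 (edgeR adjusted p = 0.1969), and 4.589 ± 0.8936 against 2.795 ± 0.6549 CPM in MECs, a log2 fold change of -0.71 ± 0.29 (adjusted p = 0.4022). It was nearly without counts in adipocytes. The sign was that of the pads in both cultured cell types, and neither difference passed the test. ENSRNOG00000000866 had log2 fold changes of 0.01 ± 0.07 in MECs, -0.03 ± 0.14 in adipocytes and 0.34 ± 0.11 in fibroblasts (adjusted p = 0.1231 in fibroblasts), and ENSRNOG00000028043 had 0.33 ± 0.33, 0.02 ± 0.25 and 0.39 ± 0.52. ENSRNOG00000014534 had log2 fold changes of 0.01 ± 0.39 in adipocytes and -0.95 ± 0.42 in fibroblasts (adjusted p = 0.2224 in fibroblasts), and it did not pass the filter on low counts in MECs.

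IFPS pads were last set against the 6 PS pads, the other mutated line with pads in both sets. edgeR called 0 of 16384 genes (0%), with 864 at an unadjusted p under 0.05 (5.27%) and 33 genes called by DESeq2. The comparisons of IFPS and of PS with wildtype share the wildtype pads, so their values are given side by side only. For ENSRNOG00000018570 the log2 fold change was -1.21 ± 0.23 in IFPS and -0.81 ± 0.22 in PS pads, for ENSRNOG00000028043 it was 1.61 ± 0.39 and 1.69 ± 0.39, for ENSRNOG00000000866 it was 0.21 ± 0.05 and 0.12 ± 0.05, and for ENSRNOG00000013780 it was -0.41 ± 0.09 and -0.29 ± 0.09. The direct differences between IFPS and PS pads were -0.40 ± 0.22 for ENSRNOG00000018570, -0.08 ± 0.38 for ENSRNOG00000028043, 0.09 ± 0.05 for ENSRNOG00000000866 and -0.12 ± 0.09 for ENSRNOG00000013780, none past the threshold. ENSRNOG00000014534 was the exception in size, with -0.81 ± 0.16 in IFPS and 0.04 ± 0.16 in PS pads.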

How the data were processed

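RNA-seq was measured in 80 libraries. The deposited table holds raw counts per gene as whole numbers, which the authors made after trimming with Trim Galore and alignment with STAR 2.5.2b to Rnor_6.0, per the submitters' processing notes. The counting tool, the annotation and the use of strand are not given in the sources used here, so genes that overlap, are antisense or have a near-identical copy are uncertain. Libraries were matched to groups by the labels and to columns by title. The 12 pads had 23831093 to 31579464 counts, and no pair of pads of one line agreed within sampling noise (30 pairs, smallest chi-square per degree of freedom 20.09).

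Differences were tested on these counts in edgeR 4.0.16 under R 4.3.3 by quasi-likelihood (TMM, filterByExpr, Benjamini-Hochberg, threshold 0.05). One fit of all 21 pads of 4 lines, with the set of title numbers as a covariate, gave the line comparisons, and a fit with line and set as 1 factor gave those by set. MECs, adipocytes and fibroblasts had a fit of 12 libraries each. Printed levels are CPM scaled by TMM, and a prior count of 2 was added before taking log2. The tests were run first on simulated data. Alternatives were RLE size factors, no filter, DESeq2 1.42.0, fits of the groups compared alone, no covariate, each number set alone, sets of 8-fold enrichment and each library left out. Chosen after seeing the data were fits without the 3 pads that stood apart, with a principal component as a covariate and without identifiers of 1 set.

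The pads and lists were chosen with earlier results of these data known. The reference table of 47357 rat genes has no Ensembl identifiers, 0 symbols matched, and the lists and markers named by symbol were not analysed here. The rule for names took, in each direction, the 2 identifiers of at least 1 CPM with one sign in both sets and the smallest p, and the calls of the set test.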

Additional observations from a re-analysis of the deposited data

Results flagged for a closer look

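The MEC-enriched genes had a mean log2 CPM of 2.24 in IFPS 6, against 2.61 to 2.82 in the other 5 IFPS pads. The gap to the nearest pad was 0.638 of the range of the 6 pads, which is above Dixon's 95% limit. It was the 1 such value among 28 groups of 6 pads checked, and chance alone marks about 1 group in 20. IFPS 6 is also 1 of the 3 pads that stood apart on the first principal component.

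For ENSRNOG00000002134 the line difference depended on the set of title numbers. IFPS minus wildtype on the log2 scale was larger by 5.81 ± 0.62 in the second set than in the first (edgeR adjusted p = 0.0008372), with wildtype 4 to 6 at 0.416, 0.149 and 0.119 CPM.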

How the results depend on the processing

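The count of 0 genes between IFPS and wildtype pads was the same with RLE size factors, no filter, only the groups compared, no covariate, each number set alone, the first principal component as a covariate, and without each library in turn (0 in every fit). It was 21 with DESeq2 and 639 with the first component of the model's residuals as a covariate. The latter fit takes its covariate from the residuals it then reduces. It also made calls on simulated counts with no line effect, drawn from a fit with the first principal component of the pads. The number of those calls, and the calls of other fits on the simulated counts, are not given here. How many of the 639 would hold was not tested.

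DESeq2 gave 27 genes for the set difference, 18 in the first and 151 in the second set, 139 between sets within IFPS and 3016 within wildtype pads, 33 for IFPS against PS pads, 203 in MECs, 214 in adipocytes and 846 in fibroblasts. Fits of only the groups compared gave 4 for the set difference, 1 in the first and 1 in the second set, 16 and 1996 between sets within IFPS and wildtype pads, 10 in MECs and 0 in fibroblasts (2116 at an unadjusted p under 0.05). Without a filter there were 277 between sets within wildtype pads, 8 in adipocytes and 31 in fibroblasts. Without wildtype 4, wildtype 5 and IFPS 6 there were 17 between sets within IFPS pads. Only wildtype 6 was then left of the second-set wildtype pads, so counts that rest on it alone are not given. The pad-enriched median was then -0.07, and -0.11 with the first principal component as a covariate.

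With 1 library left out the counts ranged from 1 to 2 for the set difference, 0 to 1 in the first set, 1 to 11 in the second, 14 to 37 and 32 to 3560 between sets within IFPS and wildtype pads, 0 to 1 against PS pads, 1 to 25 in MECs, 0 to 23 in adipocytes (23 without wildtype adipocyte 1) and 3 to 1558 in fibroblasts. Single libraries moved the medians to between 0.06 and 0.27 (MEC-enriched), -0.11 and -0.03 (adipocyte-enriched), -0.32 and -0.20 (fibroblast-enriched) and 0 and 0.22 (pad-enriched). In the first set alone ENSRNOG00000002134 had a log2 fold change of -0.29 and ENSRNOG00000047786 of 0.05, against 1.27 and -2.15 over both sets. The causes were not tested. No paired analysis was possible because the titles of the groups compared share no number.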
